A study of Arabidopsis thaliana with 20 samples.

Results

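miR396 is a small RNA (sRNA) family of plants that is made in *Arabidopsis* from a pair of precursors, miR396a and miR396b. It was followed here through the first 24 h of light-driven seedling development, together with the *GROWTH-REGULATING FACTOR* (*GRF*) mRNAs that it cuts. The members were the table rows whose name begins with ath-miR396, which are 4 of 207 miRNA rows, and the *GRF* genes with a cleavage record, which are 7 of the 327 genes with any record. The 5p and 3p strands were kept apart. Other transcripts were added where their record came from the sRNA matched to the *GRF* genes or from one sharing at least 16 nt with miR396.

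All libraries came from wild-type seedlings of the Col-0 accession. The sRNA libraries were made from aerial tissue of pooled seedlings, and the tissue of the degradome libraries is not given in the sources used here. Seedlings were kept for 4 d in darkness (W0 h), and the others were then moved to white light for 1, 3, 6, 12 or 24 h (W1 h to W24 h), with 3 biological replicates per time point and 18 sRNA libraries. The library kit was TruSeq small RNA for replicates 1 and 2, whereas replicate 3 used Small RNA v1.5. Kit and replicate 3 therefore cannot be told apart. A dark degradome library and a light one, for which RNA of all 5 light times was mixed in equal parts, recorded the 5′ ends of degraded mRNAs, with 48766970 and 46178774 mapped reads, respectively. The sRNA libraries had 17579785 to 21516866 mapped reads. The deposited files hold no mRNA levels, and those that the study reports separately were not used here, so tissue markers were not examined.

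A miRNA precursor folds into a hairpin, and Dicer-like enzymes release a duplex of a 5p and a 3p strand. One strand is loaded into an ARGONAUTE protein and guides it to matching mRNAs, which are cut opposite the middle of the guide, and the partner strand is mostly degraded. The 5p strand of miR396 is its known guide. GRF proteins are plant transcription factors that act with GRF-INTERACTING FACTOR (GIF) coactivators to sustain cell proliferation in young organs, and miR396 limits them as leaves and cotyledons mature.

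The sequences of the 4 strands are shown because the 5p pair and the 3p pair differ in how far they can be told apart. Capitals mark the seed (bases 2 to 8 from the 5′ end).
miR396a-5p: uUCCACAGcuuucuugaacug
miR396b-5p: uUCCACAGcuuucuugaacuu
miR396a-3p: gUUCAAUAaagcugugggaag
miR396b-3p: gCUCAAGAaagcugugggaaa
All 4 strands are 21 nt long. Counted from the 5′ end, the 5p strands differ at 1 base (G21U, miR396a first) and share a seed that no other miRNA of the table has. The 3p strands differ at 3 bases (U2C, U7G and G21A), and their seeds differ from each other. On the TAIR10.1 assembly, *MIR396a* (AT2G10606) lies on the minus strand at chr2:4142323-4142473, and *MIR396b* (AT5G35407) lies on the plus strand at chr5:13611798-13611932.

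The sRNA on which every *GRF* record rests, and the *GRF* sites, are printed next, because each cleaved *GRF* site has 1 unpaired base. Capitals mark the transcript base that has no partner in the deposited alignment.
query of the *GRF* records: uuccacagcuuucuugaac
*GRF1*, *GRF2*, *GRF3* and *GRF4*: guucaagaaagCcuguggaa
*GRF7* and *GRF8*: guucaagaaagcAuguggaa
*GRF9*: guucaagaaagcUuguggaa
The query is 19 nt long and equals the first 19 nt of both miR396a-5p and miR396b-5p, so a *GRF* record cannot be assigned to one precursor. Apart from the 1 bulged base, the 7 sites pair with the query without a mismatch or a G:U pair. In the sites of *GRF1* to *GRF4*, the alignment could leave either of the adjacent C bases unpaired, and in that of *GRF9* either of the adjacent U bases. The bulged base was C in 4 genes, A in 2 and U in 1, and all 7 sites had an Allen penalty score of 2, where a lower score means better pairing.

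The order of the 4 strands was the same in every library of replicates 1 and 2, whereas in replicate 3 it changed between libraries. In all 12 libraries of replicates 1 and 2, miR396a-5p was above miR396b-5p, which was above miR396a-3p, with miR396b-3p lowest. In none of the 6 libraries of replicate 3 did this order hold, and in 4 of them the 3p strands together had a higher level, in reads per 1000000 (RPM), than the 5p strands. The median of miR396a-5p was 1985 RPM in replicates 1 and 2 and 38.6 RPM in replicate 3, which is 51.5-fold lower. That of miR396b-5p was 19.6-fold lower in replicate 3 (808 against 41.2 RPM). miR396a-3p had nearly equal medians (53.9 and 48.8 RPM), whereas miR396b-3p was 17.6-fold higher in replicate 3 (56.2 against 3.20 RPM). At W0 h, replicate 3 against the mean of the other replicates ran from −6.09 to 6.42 on the log2 scale over the middle 90% of the 207 miRNAs, with a median of 0.07. On this scale miR396a-5p was at −5.83, with 11 miRNAs lower, and miR396b-5p at −5.19, with 13 lower. miR396b-3p was at 3.47, with 37 higher. Levels of different strands are therefore compared only within a replicate.

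**Figure D1:**
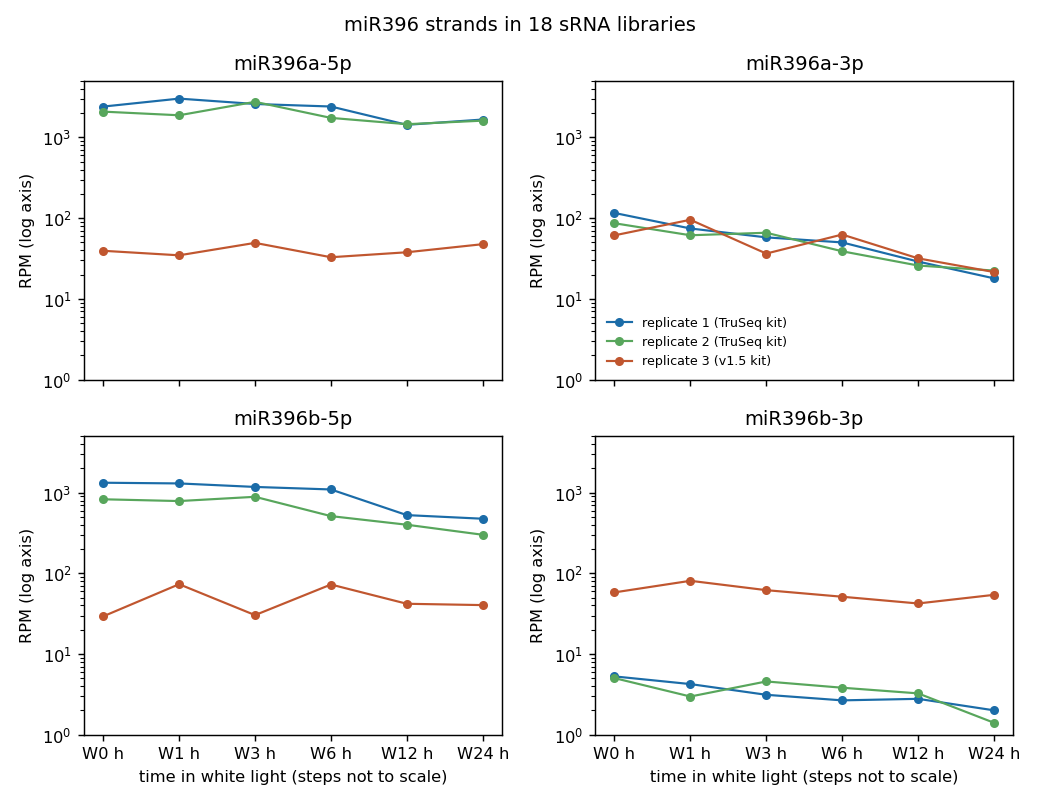
Level of each miR396 strand (RPM, log axis) against time in white light, with 1 line per replicate. The lines of replicates 1 and 2 run together, replicate 3 is far below them for both 5p strands and above them for miR396b-3p, and the 3 replicates meet only for miR396a-3p, which ends between 17.95 and 22.4 RPM.

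miR396a-3p, the passenger strand of the miR396a duplex, fell during de-etiolation. At W0 h its RPM was 115.92, 86.44 and 61.21 in replicates 1, 2 and 3. At W24 h it was 17.95, 22.4 and 21.49, so that every W24 h library was below every W0 h library. The mean went from 87.9 ± 27.4 to 20.6 ± 2.35 RPM (SD, n = 3). In between it was 28.98, 25.88 and 31.76 RPM at W12 h, also without overlap with W0 h, while the ranges at the earlier times (61.36 to 95.48 RPM at W1 h, 36.39 to 65.93 at W3 h and 38.85 to 62.65 at W6 h) overlapped it. The limma change was −1.56 on the log2 scale at W12 h (SE 0.30, adjusted p = 0.00264) and −2.04 at W24 h (SE 0.30, adjusted p = 9.28e-05), with 3 of 3 replicates lower at both times. No other miRNA of the 207 had a lower log2 change at W24 h in this fit or with a pseudocount of 1 or 0.01 RPM, whereas 3, 2 and 2 had one without replicate 1, 2 and 3, and 1 by edgeR or DESeq2 (miR5024-3p). Without replicate 3 the changes were −1.87 at W12 h and −2.31 at W24 h. Whether fewer cells with this RNA or less of it per cell lie behind such a change cannot be told apart in whole tissue. The W12 h call was lost without replicate 1 (−1.34, adjusted p = 0.211) or replicate 2 (−1.47, adjusted p = 0.123), and the W24 h call was kept without any one replicate (largest adjusted p = 0.0328).

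miR396b-3p, the passenger strand of the other precursor, was the rarest of the strands in replicates 1 and 2, with 23 to 79 reads per library. At W0 h it had 5.29, 5.04 and 58.13 RPM, and at W24 h 2.01, 1.41 and 54.2 RPM. The W24 h library was the lower one in each of the 3 replicates, but replicate 3 moved little (0.932-fold, against 0.380-fold and 0.280-fold). The limma change at W24 h was −1.07 (SE 0.31, adjusted p = 0.0113), and at W12 h it was −0.66 (SE 0.31, adjusted p = 0.156). It was −1.56 at W24 h without replicate 3 (adjusted p = 0.000631) and did not pass the threshold without replicate 1 (−0.93, adjusted p = 0.209) or replicate 2 (−0.73, adjusted p = 0.203). With libraries rescaled so that the median miRNA ratio was 0, it was −0.67 (adjusted p = 0.0554).

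miR396b-5p, a guide strand, was lower at W24 h in the 2 replicates of the TruSeq kit only. It went from 1328.47 and 828.25 RPM at W0 h to 475.56 and 300.92 RPM at W24 h in replicates 1 and 2, and from 29.36 to 40.46 RPM in replicate 3. The 3-replicate fit gave −0.62 at W12 h (SE 0.35, adjusted p = 0.238) and −0.83 at W24 h (SE 0.35, adjusted p = 0.0727), which missed the threshold. Without replicate 3 the changes were −1.19 (adjusted p = 9.37e-05) and −1.47 (adjusted p = 1.53e-06). In replicate 3 the strand was at 73.42 RPM at W1 h and 72.79 RPM at W6 h, more than 2-fold above its other libraries at W0 h and W3 h (29.36 and 30.4 RPM).

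miR396a-5p, the more abundant guide strand in replicates 1 and 2, was not called at any time by limma over the 3 replicates. Its RPM was 2412.33, 2088.62 and 39.4 at W0 h, was 2597.65, 2763.03 and 49.38 at W3 h, higher in 3 of 3 replicates without passing the test (0.28, SE 0.24, adjusted p = 0.953), and was 1433.68, 1458.85 and 37.77 at W12 h. At W24 h it was 1667.18, 1614.42 and 47.58 RPM. The change was −0.44 at W12 h (SE 0.24, adjusted p = 0.228) and −0.21 at W24 h (SE 0.24, adjusted p = 0.533), and its W24 h direction turned to 0.19 with the same rescaling. Without replicate 3 it was −0.63 at W12 h (limma adjusted p = 0.00780) and −0.45 at W24 h (adjusted p = 0.0374). In that fit the median change of all 207 miRNAs was −0.46 at W12 h and −0.62 at W24 h. At W24 h miR396a-5p thus fell less than the median miRNA.

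Set against all miRNAs, 2 of the 4 strands were called at W24 h, both lower, where 35.3% of the 207 miRNAs were called, 29% lower and 6.28% higher. At W12 h 1 of 4 was called lower, where 14% of all were called, 12.6% lower and 1.45% higher. The median change of all miRNAs was −0.34 at W12 h and −0.40 at W24 h, and with libraries rescaled so that this median ratio was 0, 33 miRNAs were called lower and 23 higher at W24 h in place of 60 and 13. The same split was 24 and 25 by edgeR and 20 and 31 by DESeq2. None of the 4 strands was called by limma in the first 6 h, where 0.483% of miRNAs were called at each of the 3 times. At unadjusted p under 0.05, miR396a-3p alone passed, at W3 h and W6 h, and 0 strands passed at W1 h. edgeR and DESeq2 also called 0 of the 4 at these 3 times. Of all 207 miRNAs, edgeR then called 1 at each time and DESeq2 called 1, 1 and 3. At W12 h edgeR called 0 of the 4, with miR396a-3p alone at an unadjusted p under 0.05, and DESeq2 called 1 (miR396a-3p). At W24 h each called 1, again miR396a-3p. Over all 207 miRNAs, edgeR called 13 at W12 h and 49 at W24 h, and DESeq2 called 27 and 51. Without replicate 3, limma called 1 of 4 at W6 h (miR396a-3p, −1.18, adjusted p = 0.00779), 3 at W12 h and all 4 at W24 h. The same fit called 6 of all 207 miRNAs at W6 h, 82 at W12 h and 111 at W24 h.

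**Figure D2:**
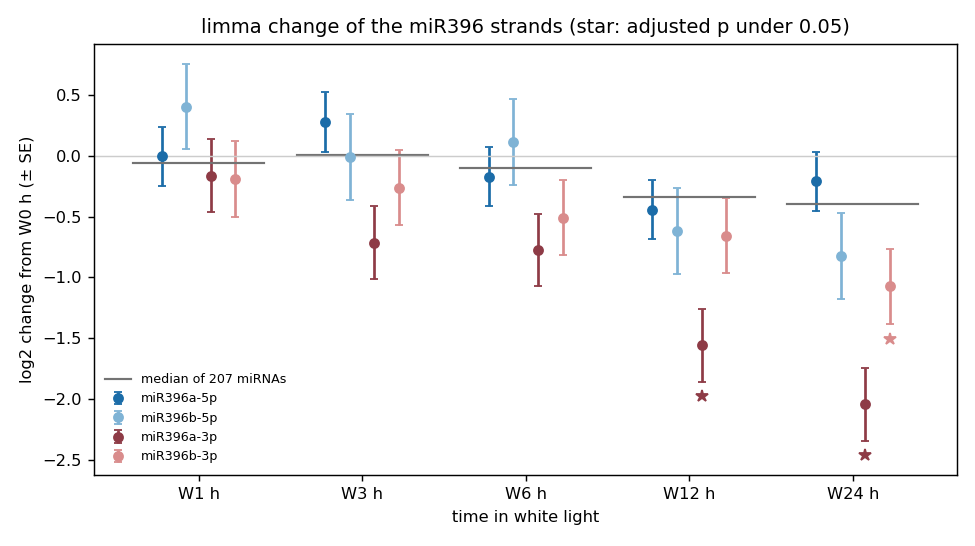
limma log2 change from W0 h (± SE) of the 4 miR396 strands at each light time point, fitted over 18 libraries with time and replicate as terms. Grey lines are the median of 207 miRNAs, and stars mark an adjusted p under 0.05. miR396a-3p falls to −1.56 at W12 h and −2.04 at W24 h, whereas miR396a-5p ends at −0.21, above the median of −0.40.

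The ratio of the 5p to the 3p strand of miR396a rose with time in light. Because both strands of a ratio were read in the same library, the ratio does not depend on how the library was scaled. At W0 h the 5p strand was 20.8-fold and 24.2-fold above the 3p strand in replicates 1 and 2 and 0.644-fold in replicate 3. By W24 h the ratio was 92.9, 72.1 and 2.21, which is 4.46-fold, 2.98-fold and 3.44-fold its W0 h value. The rise was not steady in replicate 3, where the ratio was below its W0 h value at W1 h (0.563-fold) and W6 h (0.813-fold). In replicates 1 and 2 it was above that value at every light time. The limma change of the log2 ratio was 1.12 at W12 h (SE 0.34, adjusted p = 0.0221) and 1.83 at W24 h (SE 0.34, adjusted p = 0.000626), with 3 of 3 replicates higher at both. Among the 41 precursors with both strands in the table, 48.8% were called at W24 h, of which the rises made up 19.5% of all precursors and the falls 29.3%. At W12 h 22% were called, 7.32% higher and 14.6% lower. Only 2 of the 41, miR398b and miR398c, had a larger rise at W24 h. The W12 h call was lost without replicate 1 (1.05, adjusted p = 0.205) or replicate 2 (1.06, adjusted p = 0.232).

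For miR396b no change of the strand ratio was called, and neither precursor was called by limma in the first 6 h. At W3 h miR396a alone had an unadjusted limma p under 0.05 (change 0.99). The miR396a ratio had a change of 0.60 at W6 h, which was 1.05 without replicate 3 and then passed (limma adjusted p = 0.0401). At W6 h 12.2% of the precursors were called, all lower. The 5p strand was 251-fold, 164-fold and 0.505-fold the level of the 3p strand at W0 h, and 237-fold, 213-fold and 0.746-fold at W24 h. The change was 0.03 at W12 h (SE 0.38, adjusted p = 0.929) and 0.25 at W24 h (SE 0.38, adjusted p = 0.637), with replicate 1 lower and replicates 2 and 3 higher at W24 h. With a pseudocount of 1 RPM in place of 0.1 RPM, the change was −0.06 at W12 h and −6.0e-05 at W24 h. The changes of the 2 precursors were not tested against each other. The ratios between the precursors, strand by strand, were tested over time.

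Over the 6 time points, an exact 2-sided permutation test of the slope within replicates was run on 4 ratios, and p-values were adjusted over these 4. The log2 ratio of miR396a-5p to miR396a-3p rose by 0.33 per time step (adjusted p = 0.000530 by the exact permutation test, n = 18 libraries), with slopes of 0.33, 0.30 and 0.36 in replicates 1, 2 and 3. The slope for miR396b was −0.002 (exact permutation, adjusted p = 0.972), and its sign in replicate 3 differed from that in replicates 1 and 2 (−0.08 and −0.07 against 0.13). miR396a-3p fell against miR396b-3p by 0.21 per step (exact permutation, adjusted p = 0.00620), with slopes of −0.26, −0.16 and −0.23. This slope was −0.19 without replicate 1, with an adjusted p of 0.0895 by the exact permutation test. The ratio of miR396a-5p to miR396b-5p had a slope of 0.12 (exact permutation, adjusted p = 0.144), which was 0.18 without replicate 3 (adjusted p = 0.000201) and rested on slopes of 0.15, 0.21 and −0.0003.

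**Figure D3:**
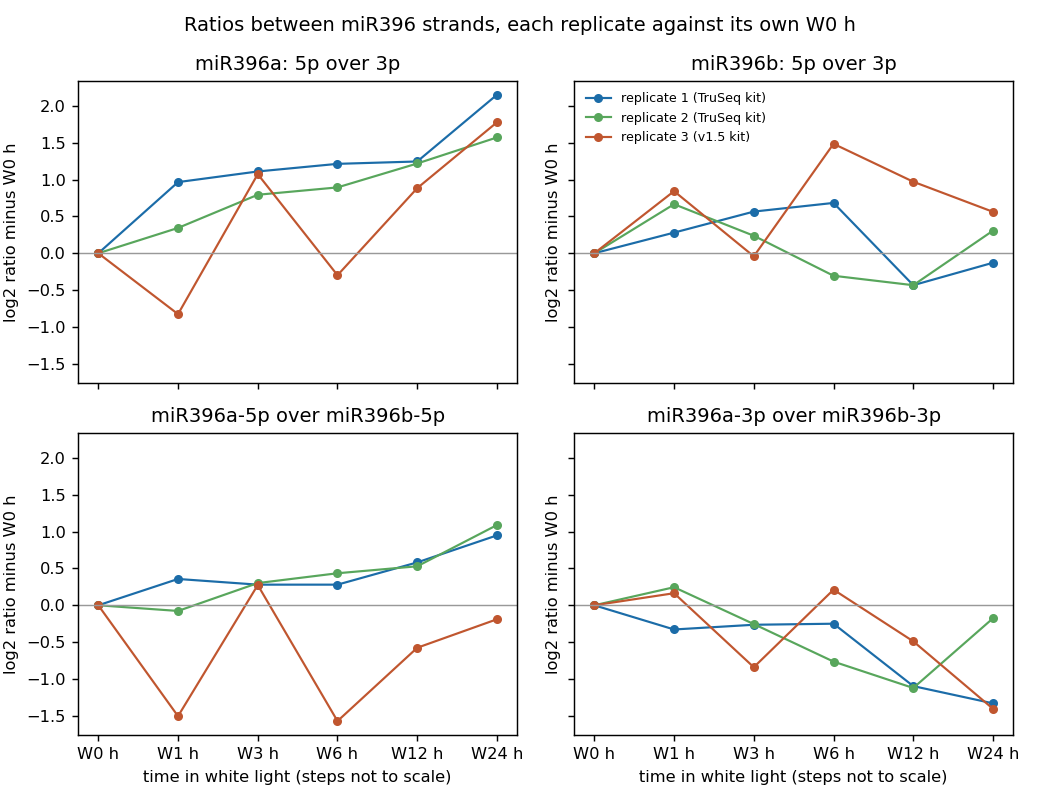
log2 ratio between miR396 strands minus its W0 h value, with 1 line per replicate, against time in white light. The miR396a 5p over 3p ratio ends above 0 in all 3 replicates (slope 0.33 per step), with replicate 3 below 0 at W1 h and W6 h. The miR396b ratio does not leave 0 in a common direction (slope −0.002). In the 5p ratio, replicate 3 departs from the other replicates at every light time but W3 h, most at W1 h and W6 h.

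The 5p values carry a limit that the 3p values do not. Reads recovered from the RPM values were whole numbers, within 0.1 read, for both 3p strands in 18 of 18 libraries. For each 5p strand they were whole in 9 and ended in 0.5 in the other 9, while the sum of the 5p strands was whole, within 0.2 read, in 18. A part of the 5p reads was therefore divided equally between miR396a-5p and miR396b-5p in the deposited values, and the size of that part is unknown. The sums do not depend on this division. The 5p strands together had 3741, 2917 and 68.8 RPM at W0 h and 2143, 1915 and 88.0 RPM at W24 h, which is 0.573-fold, 0.657-fold and 1.28-fold. The 3p strands together went to 0.165-fold, 0.260-fold and 0.634-fold. The ratio of both sums was 30.9, 31.9 and 0.576 at W0 h and 107, 80.4 and 1.16 at W24 h. It was highest at W24 h in each replicate.

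By Pearson's r over 18 libraries with each replicate's mean removed, among 151 distinct sequences, miR396a-3p was most like miR166a-5p (r = 0.921), miR403-3p (0.917), miR390b-3p (0.901), miR162a-3p (0.898) and miR395a (0.898). miR166a-5p, miR403-3p and miR390b-3p had W24 h changes of −1.42, −0.93 and −1.94, all called. miR396b-5p was most like miR403-3p (0.911), and then miR398b-3p (0.905), miR5640 (0.902), miR171b-3p (0.899) and miR840-5p (0.888). The closest to miR396a-5p were miR841a-3p (0.859), miR846-3p (0.845), miR1886.2 (0.842), miR841b-3p (0.834) and miR5024-5p (0.828). For miR396b-3p they were miR840-5p (0.855), miR395b (0.829), miR822-5p (0.826), miR166a-5p (0.813) and miR408-5p (0.813). These values describe libraries that share depth and scaling. With each library's median removed, the 5 values ran from 0.830 to 0.880 for miR396a-3p and from 0.743 to 0.849 for miR396b-5p. They ran from 0.477 to 0.704 for miR396a-5p and from 0.582 to 0.694 for miR396b-3p. miR395a and miR395b were rare, with means of 0.829 and 0.257 RPM. Among the strands themselves, miR396a-5p and its own partner miR396a-3p had an r of 0.437, whereas miR396a-3p and miR396b-5p had 0.828. Over the 12 libraries of replicates 1 and 2 alone, r was 0.779 and 0.948 for these pairs. With the median of each library removed as well, the values over all 18 libraries became −0.20 and 0.720.

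Other miRNA families known to act in leaf growth were counted from a fixed list of 23 rows. At W24 h 11 of the 23 were called lower and 0 higher by limma, where 29% of all miRNAs were called lower. They were all 10 rows of miR166, whose guide strand targets leaf polarity genes, and 1 of 3 rows of miR319, which targets *TCP* genes. The miR166 rows hold 5p and 3p strands of the same precursors, so not all are guides. miR166a-5p, for example, changed by −1.42 at W24 h. None of the rows of miR160 (4), miR164 (3) or miR165 (3) was called. At W12 h 3 of the 23, all miR166, were lower, against 12.6% of all miRNAs. miR166a-5p was among them (−1.17, limma adjusted p = 0.00264). Several rows hold the same sequence, so that the 10 rows of miR166 are 3 distinct sequences and the 23 rows are 11, of which 4 were called lower at W24 h and 2 at W12 h. In a limma fit of all 155 distinct sequences alone, 39 were called lower at W24 h and 14 at W12 h.

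In the degradome, 7 of the 9 *GRF* genes had a cleavage record with 5 or more reads on the site, a CleaveLand category no higher than 2 and a CleaveLand p-value up to 0.05. Category 0 means that the site held the most reads of its transcript, and category 1 that it shared the highest count with another position. All 13 *GRF* records were of category 0 and came from the 19-nt query, and in each the read ends lay opposite base 10 of the query, counted from its 5′ end. The dark library held 207 sites and the light library 301, of which 128 were in both. *GRF5* and *GRF6* had no record among those analysed. The deposited light list includes 139 records of category 2 and the dark list 0, so the site totals of the libraries are not on one scale.

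All 7 *GRF* sites lie in coding sequence. On TAIR10.1 the *GRF1* site (AT2G22840) spans chr2:9729946-9729965 on the plus strand, in exon 3 of 4 of the RefSeq transcript. The *GRF2* site (AT4G37740) spans chr4:17726404-17726423 on the minus strand, and the *GRF3* site (AT2G36400) chr2:15271745-15271764 on the minus strand, both in exon 3 of 4. *GRF4* (AT3G52910) has its site at chr3:19617293-19617312 on the minus strand, also in exon 3 of 4. *GRF7* (AT5G53660) has it at chr5:21795147-21795166 on the plus strand, in exon 2 of 3. The sites of *GRF8* (AT4G24150, chr4:12538651-12538670, exon 5 of 6) and *GRF9* (AT2G45480, chr2:18746294-18746313, exon 3 of 5) are both on the plus strand.

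*GRF2* and *GRF1*, which promote leaf growth, gave the strongest degradome signatures of the family. *GRF2* had 2920 reads at its site in the dark (59.9 reads per 1000000 mapped degradome reads, also written RPM, with a 95% Poisson interval of 57.7 to 62.1) and 479 in the light (10.4 RPM, 9.46 to 11.3), which is 5.77-fold lower. *GRF1* had 2100 (43.1 RPM, 41.2 to 44.9) and 850 (18.4 RPM, 17.2 to 19.7), 2.34-fold lower. Among all sites ranked by reads, *GRF2* stood at place 6 of 207 in the dark and 26 of 301 in the light, and *GRF1* at 10 and 13. Each condition is 1 library, so there is no replicate check and no test, and the intervals cover counting error only.

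*GRF3*, which acts with *GRF1* and *GRF2*, had 357 reads at its site in the dark (7.32 RPM, 6.58 to 8.12) and 152 in the light (3.29 RPM, 2.79 to 3.86). *GRF9* had 178 (3.65 RPM, 3.13 to 4.23) and 86 (1.86 RPM, 1.49 to 2.30). The intervals of these genes do not overlap between dark and light. *GRF8* had 37 reads (0.759 RPM, 0.534 to 1.05) and 19 (0.411 RPM, 0.248 to 0.643), and *GRF4* had 9 (0.185 RPM, 0.0844 to 0.3503) and 7 (0.152 RPM, 0.0609 to 0.312). For *GRF8* and *GRF4* the intervals overlap, which is no test. *GRF7*, a repressor of stress-responsive genes, had 208 reads in the dark (4.27 RPM, 3.71 to 4.89) and no light record, so its light level is not analysed here.

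**Figure D4:**
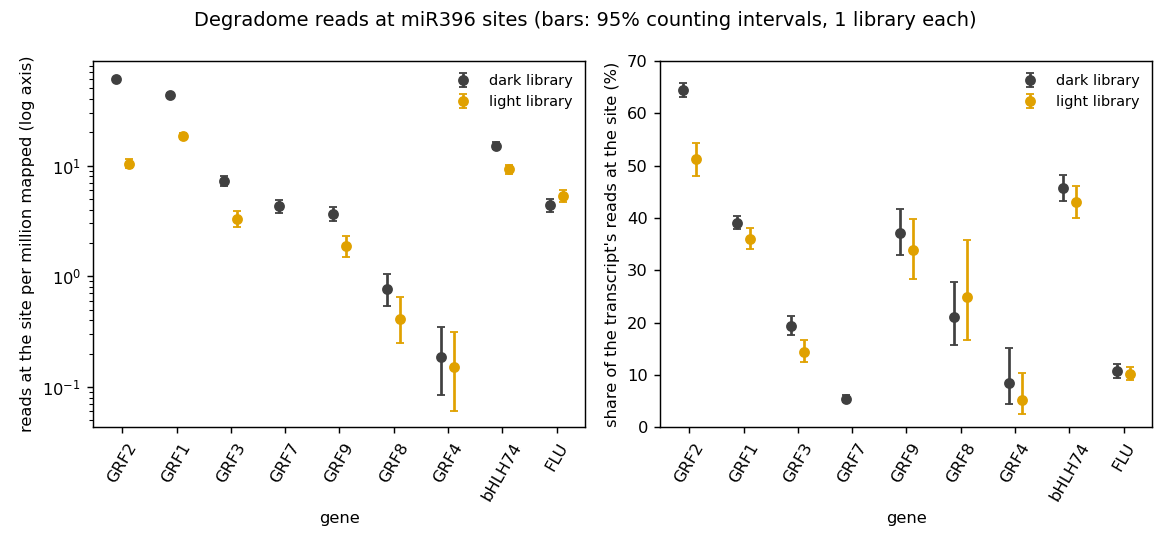
Degradome reads at the miR396 site of 7 *GRF* genes, *bHLH74* and *FLU* in the dark and light library, as RPM (left, log axis) and as the share of all reads on the transcript (right, %). Bars are 95% counting intervals of 1 library each. *GRF2* drops from 59.9 to 10.4 RPM and *FLU* does not drop (4.39 and 5.35 RPM).

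All 6 *GRF* sites found in both libraries had a lower RPM in the light, where 57.8% of the 128 shared sites did. Of the 6, 3 (*GRF1*, *GRF2* and *GRF3*) were at 0.5 or less of their dark value, against 18.8% of the shared sites. The median log2 ratio of light to dark was −1.06 over the *GRF* sites (range −2.53 to −0.28) and −0.22 over all 128, and *GRF2* had the lowest ratio of the 128. The other reads of the same transcripts, away from the site, also differed. They were 0.2997-fold in the light for *GRF2*, 0.486-fold for *GRF1*, 0.642-fold for *GRF3*, 0.591-fold for *GRF9* and 0.436-fold for *GRF8*, and 1.38-fold for *GRF4*. The paper reports separately that the mRNAs of *GRF1*, *GRF2*, *GRF3* and *GRF7* were lower in light. How far transcript abundance contributes to the reads at the site was not tested.

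The share of a transcript's reads that fell on the site differed less between the libraries. For *GRF2* it was 64.5% in the dark (95% Wilson interval 63.1 to 65.9) and 51.2% in the light (48.0 to 54.4). For *GRF3* it was 19.4% (17.7 to 21.3) and 14.4% (12.4 to 16.7), also without overlap of the intervals. *GRF1* had 39.1% (37.8 to 40.4) and 36.1% (34.2 to 38.1), *GRF9* 37.2% (33.0 to 41.7) and 33.9% (28.3 to 39.9), and *GRF8* 21.1% (15.7 to 27.8) and 25% (16.6 to 35.8), all with overlapping intervals. The lowest shares belonged to *GRF4* (8.41% and 5.19%) and *GRF7* (5.50% in the dark). The median share over the 128 shared sites was 15.3% in the dark and 16.2% in the light.

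The site stood out to different degrees along the transcripts. In the dark library the site of *GRF2* held 44.2-fold the reads of the next highest position, that of *GRF8* 7.40-fold, that of *GRF9* 6.36-fold and that of *GRF1* 5.32-fold. For *GRF7* it was 1.22-fold (208 against 171 reads), and for *GRF4* in the light 1.17-fold (7 against 6 reads), which 1 read more or less could nearly level. The next highest position was the same in dark and light for *GRF1* (180 nt after the site), *GRF2* (159 nt after), *GRF3* (183 nt after), *GRF8* (258 nt after) and *GRF9* (485 nt before). Of the reads away from the site, 77.6% to 97.9% lay after it in the dark over the 7 genes, with a median of 82.6%, where the median over all 207 sites was 68.9%. Neighbouring positions held few reads. At *GRF1* in the dark, the position just after the site had 3 reads and the one just before it 0.

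**Figure D5:**
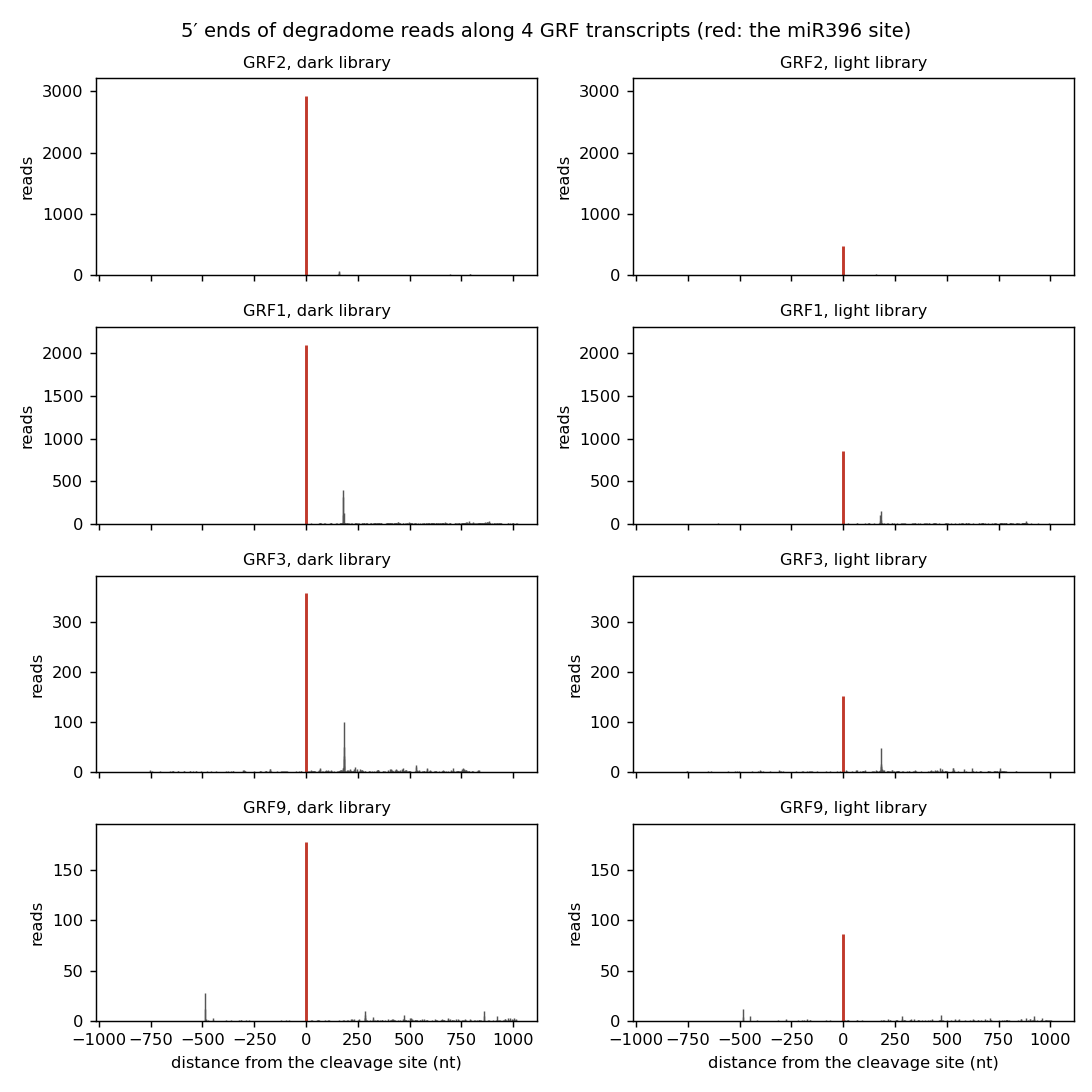
5′ ends of degradome reads (reads per position) against the distance in nt from the miR396 site along *GRF2*, *GRF1*, *GRF3* and *GRF9*, in the dark and light library on one axis scale per gene. The site, in red, is the highest position in every panel, and *GRF1* and *GRF3* share a second position 180 and 183 nt after it.

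Records of the 19-nt query lay on 9 genes in all, the 7 *GRF* genes and 2 others. This query has no row among the sRNA levels, and its records do not show which sRNA made the cut. *bHLH74* (AT1G10120), a transcription factor gene and known miR396 target in *Arabidopsis*, had 735 reads at its site in the dark (15.1 RPM) and 426 in the light (9.23 RPM), at 45.7% (95% Wilson interval 43.3 to 48.2) and 43.1% (40.02 to 46.2) of its reads. Its site has no bulged base, as its sequence shows.
*bHLH74*: gaacaagaaagcuguggag
This site is joined from exons 1 and 2 of 8 (chr1:3305399-3305517, minus strand, intron included), and its Allen score was 3.5. *ANNAT3* (AT2G38760), which encodes an annexin, had a light record of category 1 with 10 reads, equal to the reads of another position, and 1.76% of the transcript's reads.

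Records on 3 more genes came from a pair of longer relatives of the query. They are the 20-nt and 21-nt sRNAs that begin with the same 19 bases, and the longer one differs from miR396a-5p by G21C and from miR396b-5p by U21C. Through the 21-nt sRNA, *FLU* (AT3G14110), a negative regulator of chlorophyll synthesis, had 214 reads in the dark (4.39 RPM, 3.82 to 5.02) and 247 in the light (5.35 RPM, 4.702 to 6.06), with overlapping intervals. Its site in exon 4 of 4 (chr3:4676480-4676500, minus strand) has no bulge and 2 mismatches.
*FLU*: gaguucaagauagcuuuggaa
AT2G38370 had 26 and 28 reads in the dark and light by the same sRNA, or 2.63% and 3.16% of its reads. Through the 20-nt sRNA, *ACHT5* (AT5G61440), a thioredoxin gene, had 67 reads in the dark, 2.42% of its reads. The sites of AT2G38370, *ACHT5* and *ANNAT3* all had an Allen score of 5, against 2 for the *GRF* sites, and at a p-value of at most 0.01 only *bHLH74* of these 5 genes was left in either library.

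The 2 longer relatives are rows of the table among the siRNAs. At W0 h and W12 h their levels were lower in replicate 3, as those of the 5p strands were. The 20-nt sRNA had 109.6, 68.5 and 0.964 RPM at W0 h and 28.6, 33.3 and 0.739 RPM at W12 h. The 21-nt sRNA had 9.81, 7.88 and 0.0567 RPM at W0 h and 4.07, 4.89 and 0.114 RPM at W12 h. Their W24 h values are not compared, because over all siRNAs replicates 2 and 3 at W24 h did not resemble their W12 h libraries (r = −0.05 and 0.03 across siRNAs, against 0.90 in replicate 1). From a fixed list of 6 partners and targets of the pathway, *bHLH74* and *FLU* had records in both libraries. The coactivator genes *GIF1*, *GIF2* and *GIF3* and the protease gene *MMG4.7* (AT5G43060) had none among those analysed. No record of either library came from an sRNA that shares 16 nt with a 3p strand of miR396.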

How the data were processed

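The authors trimmed adaptors, mapped the reads with Bowtie 1.0.0 on TAIR10, divided reads of a miRNA family among its members and scaled the miRNA counts to the mapped 20–24 nt reads. The deposited sRNA values are RPM (13426228 to 20445034 such reads per library, inferred here). For the degradome, CleaveLand records were deposited as text, other than a table, with reads per position, category and p-value, on TAIR10 cDNAs. No deposited per-sample column was left out (0 columns).

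Changes from W0 h were tested with limma 3.58.1 (R 4.3.3) on log2(RPM + 0.1), with time and replicate as terms and a variance trend, over all 207 miRNA rows, and likewise on the log2 strand ratios of 41 precursors, with Benjamini-Hochberg adjustment and a threshold of 0.05. Fold changes on this scale understate those of rare strands. The replicate term was chosen here because replicate 3 was made with another kit. Differences between replicates 1 and 2 correlated between time points with r from −0.02 to 0.50 (15 pairs). The numbers thus set replicate 3 apart and do not clearly pair samples beyond that. The slope test used Python 3.11.15. Degradome reads were scaled to mapped reads, and sites were placed on TAIR10.1 by exact match to spliced RefSeq transcripts. Mature and query sequences are those of the study's tables and records. All 4 miR396 rows, all records on *GRF1* to *GRF9*, the records of related queries and the fixed lists are named, with the 5 most similar miRNAs per strand. Members and lists were chosen with earlier results of these data known. The alternatives were pseudocounts of 1 and 0.01 RPM, no replicate block, no variance trend, each replicate left out, rescaled libraries, a mean of at least 10 RPM (1 RPM for ratios), distinct sequences, edgeR 4.0.16 and DESeq2 1.42.0 on recovered reads (rounded, since 56.5% to 67.6% of a library's miRNA values came out whole within 0.1 read), no W24 h in the slopes, and other record thresholds. The steps were tested on simulated data.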

Additional observations from a re-analysis of the deposited data

How the results depend on the processing

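Of 360 recomputed values, 304 kept their direction and their side of the threshold, or for counts stayed equal or close to the reported count. The fall of miR396a-3p at W24 h passed the threshold under all 12 alternatives (−2.31 to −1.57), and the rise of the miR396a strand ratio at W24 h under 7 of 8 (1.67 to 1.96). Without the replicate block the difference of replicate 3 from the others enters the error, and 6 calls were lost at the same values. By limma they were miR396a-3p at W12 h (−1.56, adjusted p = 0.149) and miR396b-3p at W24 h (−1.07, adjusted p = 0.996). The miR396a strand ratio was lost at W12 h and W24 h (1.12 and 1.83, limma adjusted p = 0.993 and 0.992). By permutation, the slopes of the miR396a ratio (0.33) and of the 3p ratio (−0.21) were lost, both with adjusted p = 0.624. edgeR gave −1.08 for miR396a-3p at W12 h (adjusted p = 0.0639) and −0.62 for miR396b-3p at W24 h (adjusted p = 0.142), and DESeq2 gave −0.52 for the latter (adjusted p = 0.186). The rescaled libraries gave −0.67. miR396a-5p turned positive at W24 h with rescaled libraries (0.19), edgeR (0.25) and DESeq2 (0.28), and at W12 h with edgeR (0.068), in no case past the threshold. With a mean of at least 10 RPM, miR396b-5p at W24 h passed (−0.83, adjusted p = 0.0374), as fewer miRNAs were tested (88). The miR396b strand ratio turned with a pseudocount of 1 RPM (−0.064 at W12 h and −6.0e-05 at W24 h), and its slope without W24 h (0.0094). Uncalled early values that turned sign were those of miR396a-5p at W1 h (0.092 rescaled, 0.21 edgeR, 0.20 DESeq2) and W6 h (0.016 edgeR, 0.013 DESeq2), miR396a-3p at W1 h (0.082 edgeR, 0.028 DESeq2), miR396b-3p at W1 h (0.093 edgeR, 0.059 DESeq2) and miR396b-5p at W3 h (0.081 DESeq2). Leaving out each replicate in turn moved miR396a-5p from −0.17 to 0.089 at W1 h, −0.63 to −0.29 at W12 h and −0.45 to −0.050 at W24 h, and miR396a-3p from −0.57 to 0.073 at W1 h and −1.87 to −1.34 at W12 h. miR396b-5p ran from −0.051 to 0.65 at W1 h, −0.062 to 0.076 at W3 h, −0.49 to 0.51 at W6 h, −1.19 to −0.27 at W12 h and −1.47 to −0.50 at W24 h, and miR396b-3p from −0.52 to 0.084 at W1 h and −1.56 to −0.73 at W24 h. The miR396a strand ratio ran from −0.24 to 0.65 at W1 h and 1.05 to 1.23 at W12 h, that of miR396b from −0.43 to 0.27 at W12 h, and the slopes from −0.071 to 0.034 (miR396b), 0.077 to 0.18 (5p ratio) and −0.24 to −0.19 (3p ratio). Other genes with a record fell from 4 to 1 in each library at a p-value of at most 0.01, whereas the *GRF* counts held within 1. The cause of these differences was not tested, except where the construction names it. Over all miRNAs, 29 were called at W12 h as reported, 13 by edgeR, 82 without replicate 3, 1 without replicate 1 or 2 and 0 without the block. At W24 h they were 73, against 49 by edgeR, 111 without replicate 3, 18 without replicate 1, 8 without replicate 2 and 9 without the block. Strand ratios called at W12 h fell from 9 to 0 without replicate 1, without replicate 2 or without the block, and were 15 without replicate 3. At W24 h they fell from 20 to 10 without replicate 1 and to 0 without the block. miRNA read depth limits miR396b-3p most (23 reads in its lowest library), and 1 degradome library per condition limits every dark to light difference.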
